A study of Drosophila melanogaster with 7 samples.

Results

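A fly egg is loaded by the mother with mRNAs that are moved to chosen places, held silent by bound proteins and opened for translation, or destroyed, by changes in the length of their poly(A) tails. The genes that do this work are best known from the ovary and the early embryo, where they place and translate osk and nos mRNA and so build the germ plasm that makes the germ cells. Several of them, among them Fmr1, brat, stau and me31B, also control translation in nerve cells. A list of 41 such genes, regulators of maternal mRNA together with genes of the germ line, was followed in Drosophila embryos that lacked zygotic lola. A gene was taken as present when an array feature carried its current or older symbol and no other gene, and 32 of the 41 genes were found, on 39 of the 10227 features tested. Of these, 25 genes had 1 cDNA clone and 7 had 2 (me31B, smg, Fmr1, brat, Pabp2, Not1 and vls). No feature of this kind was found for tral, bru1, orb, pum, enc, nos, pgc, plu or squ, so those 9 genes have no value among the members.

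The study asked which transcripts change in embryos without lola, a gene for a family of BTB zinc finger transcription factors needed for axon growth and guidance. Mutant embryos were w1118 and carried lolaORE76, a null allele with an early stop codon, on both copies of chromosome 2, recombined on one copy with sca-GAL4 and on the other with UAS-tau-eGFP. Control embryos were w1118 with sca-GAL4 and UAS-tau-eGFP but without the lola allele, so driver, reporter and the w1118 allele were shared by both groups. The driver is active in the nervous system, and embryos of either group were picked by green fluorescence there, with RNA taken from about 300 whole embryos at 10 to 12 hours of development. Each of 7 pairs of mutant and control RNA, collected independently, was hybridised to 1 spotted cDNA array with 2 colours. Arrays 1, 3 and 6 had the mutant RNA labelled with Cy5, and arrays 2, 4, 5 and 7 had it labelled with Cy3. On any 1 array the dye and the pair cannot be told apart. By the study's account the mother contributes Lola to the embryo, which may make measured effects smaller, and modifier loci on the mutant chromosome may account for some changes, which was not tested here.

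All values are log2 ratios of mutant over control, with SD over 7 arrays. This direction is likely but is not written in the deposited table: the signs were turned, because 14 of 14 clones that could be set against the array fold changes in the study's qRT-PCR table had the opposite sign as deposited. Unless another test is named, an adjusted p is from a two-sided moderated test in limma, which asks whether the mean ratio is 0, with Benjamini-Hochberg adjustment over all 10227 features, and a feature was called below 0.05. The number of arrays limits the precision, and spot intensities were not used, so a dim clone could not be told from a bright one. In RNA from whole embryos, fewer cells of a type and less RNA per cell cannot be told apart. Ratios give no level of a transcript, so the presence of germ cells could not be checked from vas, osk, tud and the other germ cell genes.

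The measured ratios of most of these genes lay near 0. Whether each clone gave signal was not tested, so a small ratio does not show that a transcript was unchanged. BicD rose, yps, me31B and Pabp2 fell, and the other 28 genes were not called. The 4 called genes were 12.5% of the 32, where 6.04% of all 7583 genes were called by the same rule. The members had been chosen with earlier results of these data known, so the higher share is no independent evidence about them. A gene with more clones also has more chances of a call: 7 of the 32 had 2, and 913 of the 7583 had more than 1. By feature, 5 of 39 member clones passed (12.8%), 1 upward and 4 downward, against 6.11% of all features, with 367 upward and 258 downward. Fitted on gene averages, 3 of the 32 passed (BicD, yps and me31B) against 5.59% of all genes, and Pabp2 was at an adjusted p of 0.0665. At an unadjusted p under 0.05, 7 of the gene averages passed, the other 3 being vas, Not1 and gus. How many of all genes passed at this unadjusted threshold was not counted, so the 7 cannot be read as many or few. With 1 array left out, calls were lost while the ratios moved little. The mean stayed between 0.38 and 0.50 for BicD, between -0.31 and -0.25 for yps, between -0.31 and -0.23 for the clones of me31B and between -0.21 and -0.18 for the called clone of Pabp2. Without array 5 limma called 0 of the 32 genes, with 10 of 39 member clones at an unadjusted p under 0.05. The share of all features at that threshold was not counted for this fit, so the 10 cannot be read as many or few. Without array 2 or array 4 only yps was called, and without array 7 only yps and me31B were. Without array 3 or array 6 the call of Pabp2 was lost. Without array 1 all 4 kept their call and Not1 was called too. Calls over all features moved as well, to 246, 277 and 288 of 625 without array 2, 4 or 5.

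The means of the 32 genes lay on both sides of 0, with 15 above and 17 below. Their median was -0.00 against -0.02 for all genes, and the median absolute mean was 0.0685 against 0.0796. The median SD over arrays was 0.21 for the 32 genes and 0.19 for all genes. Of the 28 uncalled genes, 21 had a mean within 0.1 of 0, and the 95% interval of 18 lay inside a change of 1.25-fold either way. For 27 of the 28 it lay inside 1.5-fold, vas being the exception.

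**Figure D1:**
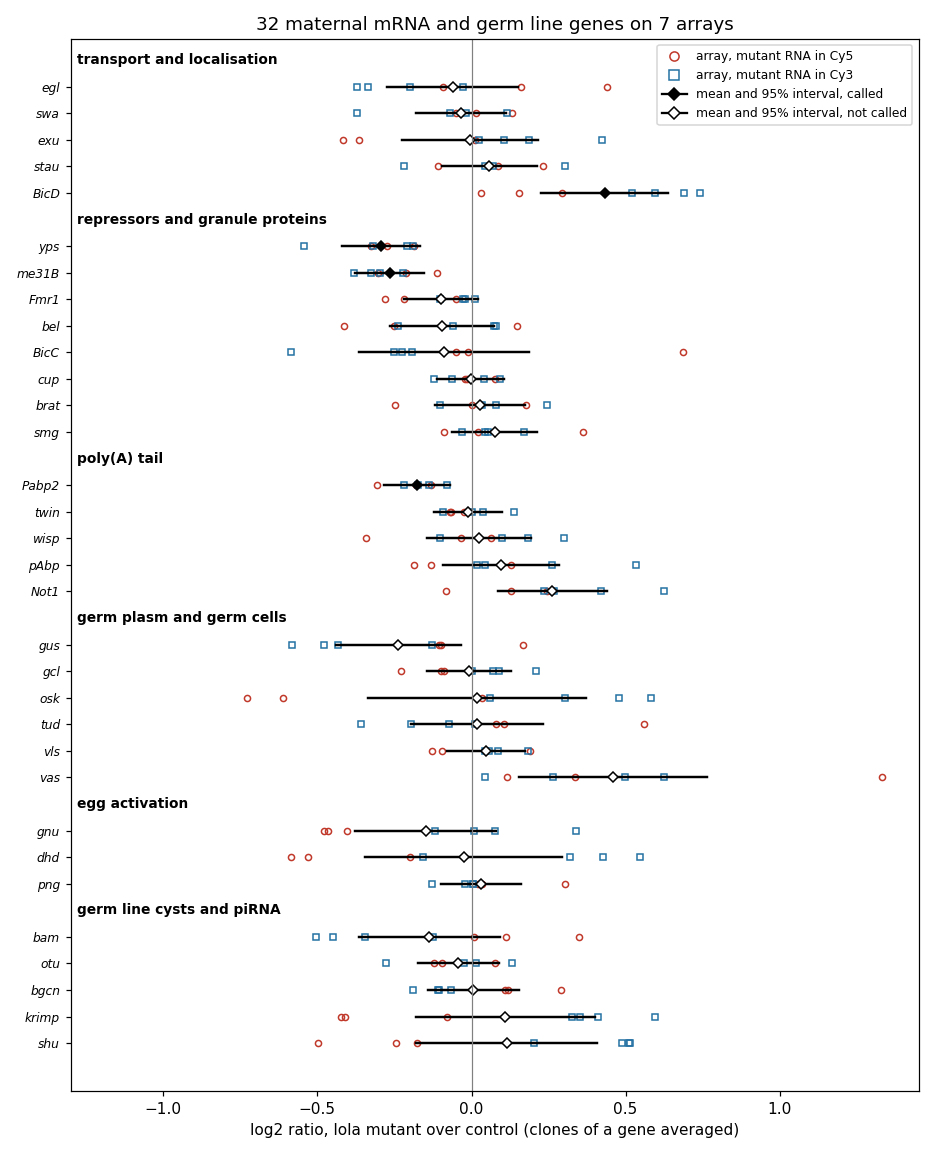
Log2 ratio of lola mutant over control for each of the 32 genes on each of 7 arrays (circles, mutant RNA in Cy5; squares, mutant RNA in Cy3), with clones of a gene averaged, the mean as a diamond and its 95% interval from limma as a line. Filled diamonds mark the 4 called genes; BicD lies above 0 and yps, me31B and Pabp2 below it on all 7 arrays, while osk spreads from -0.73 to 0.58.

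Of the 5 genes that carry mRNA through the oocyte and embryo, BicD rose and the other 4 were not called. BicD links dynein to its cargo and moves mRNAs together with Egalitarian. Its clone LD17129 stood at 0.03, 0.69, 0.15, 0.74, 0.52, 0.29 and 0.60 on arrays 1 to 7. The ratio was above 0 on every array, and the 3 arrays with the mutant RNA in Cy5 were all lower than the other 4. The mean was 0.43 ± 0.28 (SD, n = 7), a rise of 1.35-fold, with a 95% interval of 0.22 to 0.64 and an adjusted p of 0.0244. The mean was 0.16 with the mutant RNA in Cy5 and 0.64 with it in Cy3, and in a fit with a dye term the genotype mean was 0.40 (adjusted p = 0.00283). Leaving out 1 array at a time, the adjusted p of BicD ran from 0.0123 to 0.0880.

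The other 4 genes of the group had means near 0. The mean was -0.06 ± 0.29 for egl, which binds localised mRNAs and BicD. It was -0.00 ± 0.30 for exu and -0.04 ± 0.17 for swa, which are both needed to hold bcd mRNA at the anterior. For stau, a double-stranded RNA binding protein of osk and bcd mRNA, it was 0.06 ± 0.18. For egl the interval of -0.28 to 0.15 did not overlap that of BicD. On the arrays with the mutant RNA in Cy3 the means were -0.23 for egl and 0.64 for BicD. With it in Cy5 they were 0.17 and 0.16. The difference between the 2 genes was not tested.

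Among the repressors and the proteins of RNA granules, 8 of 13 listed genes were on the arrays, and 2 fell. Both called genes act in 1 known complex with osk mRNA in the oocyte: yps encodes a Y-box protein that binds Exuperantia, and me31B a DEAD-box helicase that keeps mRNAs silent on their way to the posterior. The yps clone GH18372 stood at -0.33, -0.19, -0.19, -0.54, -0.32, -0.27 and -0.21 on arrays 1 to 7. All arrays were below 0, array 4 lowest, and the dye orientations overlapped. The mean was -0.29 ± 0.12 (1.23-fold lower, 95% interval -0.42 to -0.16, adjusted p = 0.0174). Of all member clones it kept its call most often, in 6 of the 7 fits that left out 1 array, with an adjusted p of 0.0606 without array 5.

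Both clones of me31B fell. Clone LD21247 stood at -0.24, -0.29, -0.36, -0.31, -0.30, -0.08 and -0.39, a mean of -0.28 ± 0.10 (1.21-fold lower, adjusted p = 0.0159). Clone LD01252 stood at 0.02, -0.37, -0.24, -0.14, -0.30, -0.35 and -0.38, a mean of -0.25 ± 0.14 (adjusted p = 0.0414). The clones differed most on arrays 1 and 6, by up to 0.272, and by a median of 0.120. LD21247 was called in 4 of 7 fits that left out 1 array and LD01252 in 1.

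The other 6 genes of this group were not called. They were cup, an eIF4E binding protein, at -0.00 ± 0.08, the helicase gene bel at -0.09 ± 0.21, and smg, which brings the deadenylase to maternal mRNAs, at 0.08 ± 0.15. Fmr1, the fly relative of the fragile X gene, was at -0.10 ± 0.11, brat, a repressor that acts with Pumilio and Nanos, at 0.03 ± 0.17, and BicC, a KH-domain protein, at -0.09 ± 0.39. BicC was the least even of the group: it stood at 0.69 on array 6 and at -0.59 on array 4. The value of cup was the closest to 0 of the group and among the most even of the 32 genes, from -0.12 to 0.09.

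All 5 genes for the poly(A) tail were measured, and Pabp2 fell. Pabp2 encodes the nuclear protein that covers growing tails and sets their length. Its clone RE74211 stood at -0.14, -0.23, -0.21, -0.24, -0.16, -0.28 and -0.12, a mean of -0.20 ± 0.06 (1.15-fold lower, 95% interval -0.30 to -0.09, adjusted p = 0.0364). Clone RE69521 stood at -0.12, -0.21, -0.15, -0.11, -0.11, -0.34 and -0.04, a mean of -0.16 ± 0.10, and did not pass (adjusted p = 0.125). All 14 ratios from the pair of clones were below 0, so the clones differed in call but not in sign. The call of RE74211 held in 1 of 7 fits that left out 1 array, that without array 1, while its mean stayed between -0.21 and -0.18 in all 7.

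Not1, the scaffold of the CCR4-NOT deadenylase, had positive ratios on most arrays but no call. Clone LD42146 stood at -0.14, 0.34, 0.20, 0.37, 0.30, 0.20 and 0.89 (mean 0.31 ± 0.31, adjusted p = 0.119). Clone SD07194 stood at -0.02, 0.13, 0.06, 0.47, 0.24, 0.29 and 0.36 (mean 0.22 ± 0.17, adjusted p = 0.0985). Array 1 was the lowest and the 1 array below 0 for either clone, and without it LD42146 was at an adjusted p of 0.0443. The catalytic partner twin, the CCR4 nuclease, was at -0.01 ± 0.08 with an interval of -0.12 to 0.10. The cytoplasmic poly(A) binding protein gene pAbp was at 0.10 ± 0.24 and wisp, a poly(A) polymerase that extends maternal tails, at 0.02 ± 0.21.

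**Figure D2:**
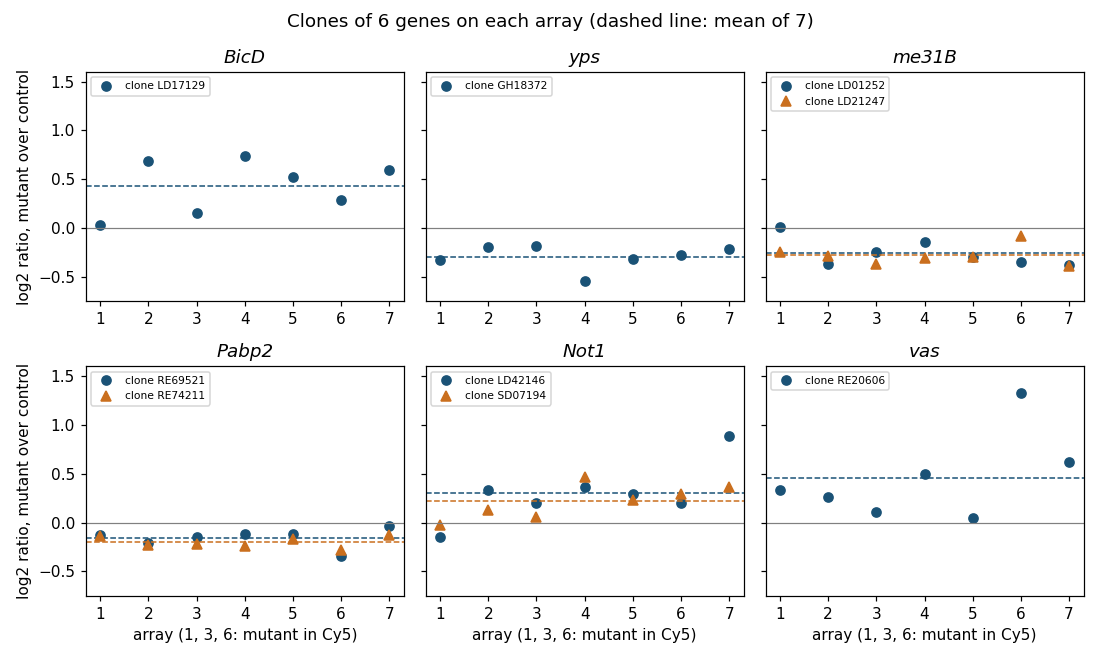
Log2 ratio of mutant over control on each array for the clones of BicD, yps, me31B, Pabp2, Not1 and vas, with 1 symbol per clone and a dashed line at its mean of 7 arrays. Both clones of me31B and of Pabp2 lie below 0 on nearly every array, both clones of Not1 are lowest on array 1, and vas reaches 1.33 on array 6.

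In the group of germ plasm and germ cell genes, 6 of 8 listed genes were measured and 0 were called by limma, with 2 gene averages at an unadjusted p under 0.05 (vas and gus) and 1 in the exact sign-flip test (vas). vas encodes a DEAD-box helicase that marks germ cells at all stages. Its clone RE20606 had the largest mean of the 32 genes over all 7 arrays, 0.46 ± 0.43, and stood at 0.34, 0.26, 0.11, 0.50, 0.05, 1.33 and 0.62 on arrays 1 to 7. All 7 arrays were above 0, with array 7 the next highest after array 6, and the adjusted p was 0.0859 (95% interval 0.15 to 0.76). It ran from 0.0543 to 0.212 with 1 array left out. Without array 6 the mean of vas was 0.31, below that of BicD at 0.45.

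gus, whose product binds Vasa, had the largest fall among the uncalled genes. Its clone LD34464 stood at -0.10, -0.43, -0.10, -0.13, -0.48, 0.17 and -0.58 (mean -0.24 ± 0.27, adjusted p = 0.175). The 3 Cy5 arrays were all higher than the 4 Cy3 arrays. Array 6, where vas was highest, was the 1 array above 0 for gus.

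osk, whose product starts germ plasm assembly, was the most spread of the 32 genes. Its clone LD24944 stood at -0.61, 0.48, -0.73, 0.06, 0.58, 0.03 and 0.30 on arrays 1 to 7. The mean was 0.02 ± 0.51, and the interval of -0.34 to 0.37 held both rises and falls. The other means were 0.02 ± 0.29 for tud, a Tudor-domain scaffold of the germ plasm, 0.05 ± 0.12 for vls, a partner of the methyltransferase that modifies germ plasm proteins, and -0.01 ± 0.15 for gcl, which is needed for pole cells to form. The clones of vls differed by a median of 0.308 and by up to 0.601 on 1 array, the widest of the 7 pairs, and both had means of 0.05.

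None of the genes of egg activation or of germ line cysts and the piRNA pathway was called by limma, and 0 of these 8 passed at an unadjusted p under 0.05 or in the exact sign-flip test. Of the first group, png, the kinase that opens maternal mRNAs for translation, was at 0.03 ± 0.13, its activator gnu at -0.15 ± 0.31, and dhd, a thioredoxin of the egg, at -0.03 ± 0.46. Of the second, otu, needed for egg formation, was at -0.04 ± 0.14. The differentiation gene bam was at -0.14 ± 0.32 and its partner bgcn at 0.01 ± 0.17. The piRNA genes krimp, a Tudor-domain gene, and shu, a co-chaperone gene, were at 0.11 ± 0.41 and 0.11 ± 0.42. Intervals for the last pair reached from -0.18 to 0.40 and 0.41, so rises of more than 1.25-fold lay inside them.

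The ratios of some of these genes followed the dye. In a fit with a dye term, that term was called for 7 of 39 member clones (17.9%) against 11.5% of all features. The 6 clones with higher ratios when the mutant RNA was in Cy3 were those of BicD, osk, gnu, dhd, krimp and shu, and bam went the other way. Over all features the dye term had the first sign in 703 and the second in 477. The lowest dye adjusted p values were those of shu (0.00988) and krimp (0.00986). The mean of shu was -0.31 on the Cy5 arrays and 0.43 on the Cy3 arrays, and that of krimp -0.30 and 0.42. The widest difference between these means was that of osk, with -0.43 and 0.36 (dye adjusted p = 0.0366).

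The values of these genes show it array by array. shu stood at -0.50, -0.24 and -0.18 on arrays 1, 3 and 6 and at 0.51, 0.49, 0.51 and 0.20 on arrays 2, 4, 5 and 7. dhd stood at -0.53, -0.59 and -0.20 on the former and at 0.42, -0.16, 0.55 and 0.32 on the latter (dye adjusted p = 0.0342). bam stood at 0.35, 0.11 and 0.01 on the former and at -0.35, -0.12, -0.45 and -0.50 on the latter (dye adjusted p = 0.0349). For all 3 genes every Cy5 array lay on 1 side of every Cy3 array, and the means of the orientations had opposite signs.

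Such a gap between orientations was found in 17 of 39 member clones (43.6%) and in 25.1% of all features. In 9 of the 17 the Cy5 arrays were lower (BicD, exu, osk, dhd, gnu, krimp, shu, gcl and Not1 clone LD42146) and in 8 higher (bam, bgcn, gus, tud, BicC, png, vls clone AT09449 and smg clone LD30037). Among the called genes the gap was seen for BicD, and yps, me31B and Pabp2 had overlapping orientations. Their genotype means with the dye term in the fit were -0.29 for yps, -0.24 and -0.27 for me31B and -0.20 for the called clone of Pabp2, and the same 4 genes were called in that fit. The dye calls depended on the arrays: 0 member clones had a called dye term without array 1, 2 without array 2, 3 or 5, 4 without array 7, 8 without array 4 and 11 without array 6. The count over all features moved in the same direction, with 190 without array 1, 307 to 439 without array 2, 3 or 5, 871 without array 7, 1274 without array 4 and 2326 without array 6, against 1180 with all arrays. The term was tested against the spread between pairs of the same dye orientation, and only within a single array can dye and pair not be told apart.

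**Figure D3:**
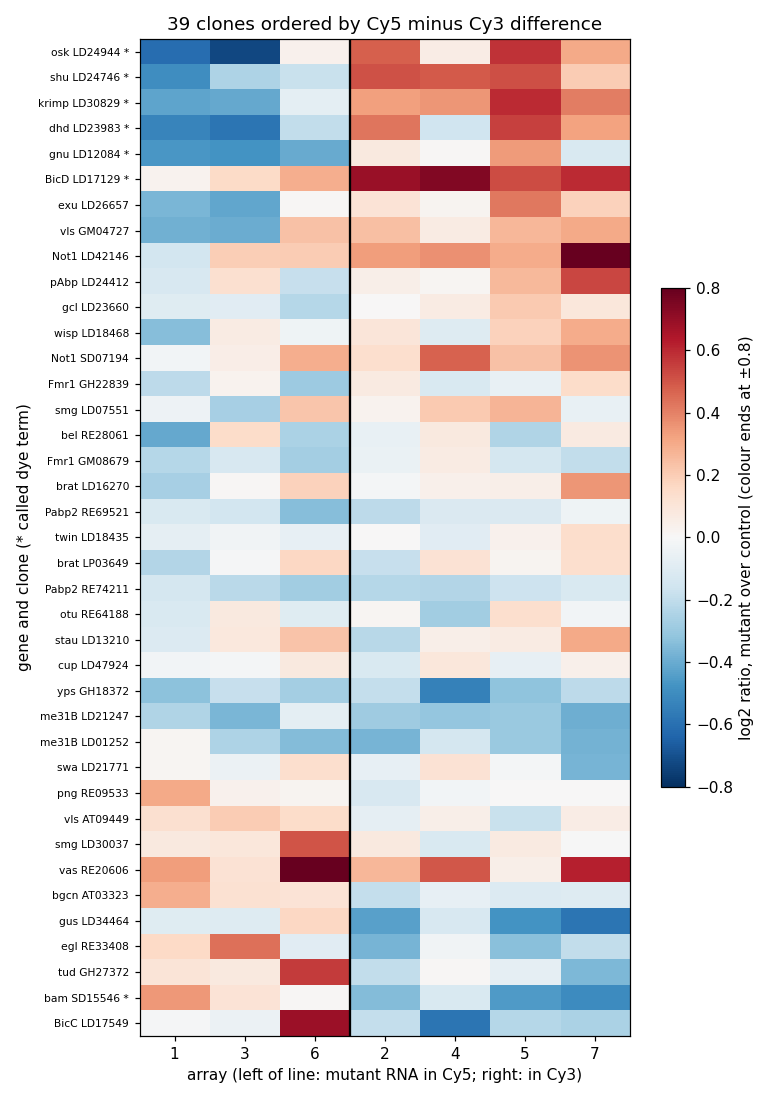
Log2 ratio of mutant over control for the 39 clones (rows) on arrays 1, 3 and 6 with mutant RNA in Cy5, left of the line, and arrays 2, 4, 5 and 7 with mutant RNA in Cy3, right of it, as a colour that ends at ±0.8 (higher values have the end colour). Rows run from the clones lowest in Cy5 against Cy3 to those highest, and an asterisk marks the 7 clones with a called dye term. Among them shu and krimp near the top are blue on the left and red on the right, while osk is close to 0 on arrays 4 and 6.

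Chromosome 2 carried the lola allele and differed between mutant and control embryos. Of the 32 genes, 19 lie on it, 7 on 2L and 12 on 2R by the RefSeq annotation, and 3 of the 19 were called (BicD and me31B on 2L, Pabp2 on 2R). Among all genes of chromosome 2 on the arrays, 6.79% were called. Of the 13 members on other chromosomes 1 was called, yps on 3L, where 5.55% of all genes of the other chromosomes were. With 4 calls in all, these counts give no order between the chromosomes. Effects of linked alleles on the mutant chromosome cannot be told apart from those of the lola allele, for genes of any chromosome.

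Other genes of the same processes, were read from lists that held none of the 41. Over 3 such lists 7 of 73 genes were called (9.59%), against 6.04% of all genes. Of 30 genes for mRNA decay and translational control, 3 rose and 2 fell (16.7%), with a median gene mean of 0.03. Syp, a hnRNP protein that binds mRNAs in nerve and muscle, rose by 0.77 ± 0.35 (adjusted p = 0.00444), heph, the polypyrimidine tract binding protein, by 0.39 and hrg, the nuclear poly(A) polymerase, by 0.22. Imp, which binds osk mRNA, fell by 0.26 and tsu, of the exon junction complex needed for osk placement, by 0.24. Not every clone passed for heph, called in 1 of 2, or for Imp, called in 2 of 3. Syp and Imp, which act in opposition in neural stem cells, thus had opposite signs.

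Of 22 further germ line and small RNA genes, spir and del rose and 0 fell (9.09%), with a median of 0.05. spir, an actin nucleator needed for the polarity of the oocyte, rose in both of its clones. The clone GH13327 ran from 0.63 to 1.89 over the arrays, so its lowest array was above the mean of each of the 32 genes. del, of the complex that permits piRNA cluster transcription, rose by 0.37 ± 0.24 (adjusted p = 0.0274). Of 21 genes of the maternal axes, egg activation and early cell cycle, 0 were called by limma, with a median of -0.01, 4 at an unadjusted p under 0.05 and 3 in the exact sign-flip test. The count over these lists was 3 without array 2, 4 or 5, in place of 7. These lists were written with earlier results of the arrays known.

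The whole embryo holds many tissues, and their markers moved with arrays. The mean of 17 muscle genes was -1.04 on array 6 and -0.30 to 0.57 on the others, and that of 20 cuticle genes -0.63 and -0.17 to 0.17. The mean of 4 neuronal genes was -0.62 on array 6 and -0.28 to 0.05 on the others. For 11 blood cell genes the shift was smaller, with -0.08 on array 6 and 0.12 to 0.32 on the others. The mean of the 32 genes was 0.05 on array 6 and -0.12 to 0.07 on the others. On array 6, 7 of the 32 genes had their highest ratio and 4 their lowest. The former were vas, BicC, tud, smg, vls, gus and swa, at 1.33, 0.69, 0.56, 0.36, 0.19, 0.17 and 0.13. The part of the muscle, cuticle, neuronal and blood cell values in these ratios was not tested. How many of all genes were highest on array 6 was not counted. Of the marker lists, 1 of 17 muscle genes (CBP, 5.88%) and 3 of 11 blood cell genes (Pxn, PPO1 and PPO2, 27.3%) rose, where 6.04% of all genes were called in either direction. Pxn was called in 1 of its 2 clones. None of 20 cuticle and 4 neuronal genes was called by limma, with 3 and 2 at an unadjusted p under 0.05 and 4 and 1 in the exact sign-flip test. Without array 6 BicD, yps and me31B kept their calls.

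**Figure D4:**
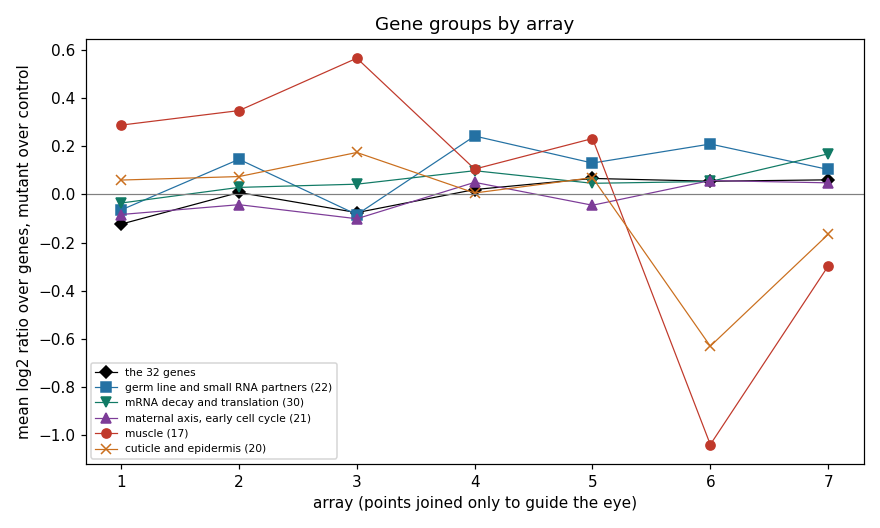
Mean log2 ratio of mutant over control on each array for the 32 genes, for 3 lists of other genes of the same processes and for muscle and cuticle markers, with the number of genes in brackets and lines only to guide the eye. The 32 genes stay between -0.12 and 0.07, while muscle falls to -1.04 and cuticle to -0.63 on array 6.

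Clones of 2 genes that the rule left out can be named from the study's list of changed clones. GM15173, given there as bru1, the repressor of osk translation, stood at 0.53, 0.16, 0.39, 0.57, 0.07, 1.09 and 0.33 on arrays 1 to 7 (mean 0.45 ± 0.34). RE14873, given as pgc, which shuts down transcription in germ cells, stood at -0.16, -0.41, -0.24, -0.34, -0.35, -0.15 and -0.71 (mean -0.34 ± 0.19). Each had 1 sign on all 7 arrays, with bru1 highest on array 6 as vas was. Because that list holds clones chosen for passing on these arrays, their calls are no evidence beside those of the 32 genes.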

How the data were processed

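The data were 7 cDNA arrays, each a pair of lola mutant and control RNA. The authors extracted intensities with GenePix, made no background correction, normalised by print-tip loess within and scale between arrays, and deposited 1 column of log2 ratios for each array. They used limma, whose version was not given in the sources used here. Of 10376 features, 149 control spots were left out. Columns of other samples numbered 0. The platform table gave 8598 features 1 gene, 517 several and 1112 none; 8454 were matched by gene ID to RefSeq (Release 6 plus ISO1 MT) and 144 kept the platform symbol, among them those of vas and Not1. After 52 clones of retrotransposons or several sequences were left out of naming, 7583 genes remained. pAbp, smg and squ also had a clone shared with another gene, which was not used.

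Ratios were turned to mutant over control and fitted in R 4.3.3 by limma 3.58.1 (lmFit, then eBayes), after a test on simulated data. A gene was called when at least 1 feature passed at 0.05 and none passed the other way. The exact sign-flip test on gene averages is two-sided and cannot go below 0.0156. Members and lists were chosen with earlier results of these data known, and so were the alternatives: each array left out, 1 dye orientation alone, a dye term, array weights, a minimum fold of 1.1, robust variances, control spots kept, median centring and gene averages. The 2 clones named from the study's list were added after seeing the data. Each member found is named with its mean. Values on every array are given for members that were called, whose clones disagreed in call or whose mean was largest, and for gus, Not1, osk, shu, dhd and bam as examples chosen after their values were seen. List genes are named only where called. Lists, roles and the gap between dye orientations are described by counts, with no test. Counts at an unadjusted p or in the sign-flip test have no share over all genes beside them, except for the Cy5 arrays alone.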

Additional observations from a re-analysis of the deposited data

Results flagged for a closer look

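In 3 of the 32 genes 1 array stood far from the other 6, relative to the range of all 7 (Dixon's ratio); chance marks about 1 gene in 20 in this way. yps, 1 of the called genes, was at -0.54 on array 4, while the other 6 arrays lay between -0.33 and -0.19, and it stayed called without array 4 (adjusted p = 0.0476 in limma). swa was at -0.37 on array 7, the other 6 lying between -0.07 and 0.13. png was at 0.30 on array 1, the other 6 lying between -0.13 and 0.04.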

How the results depend on the processing

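Of the 32 genes 4 were called, and 0 to 5 with 1 array left out. The count was 12 on the 4 arrays with mutant RNA in Cy3 and 0 on the 3 with it in Cy5 (limma, where 7 member clones passed at an unadjusted p under 0.05). It was 0 with a minimum fold of 1.1 (5 clones at an unadjusted p under 0.05, not counted over all features) and 7 in the exact sign-flip test without adjustment. Over all features these settings gave 2501, 0 (1751 at an unadjusted p under 0.05) and 184 calls, with 2057 under array weights and 246 to 775 with 1 array left out, against 625. The 7 calls in the 3 lists of related genes became 17, 0 and 3, with 18 under array weights and 3 to 8 with 1 array left out. The 7 member clones with a called dye term became 13 under array weights and 0 to 11 with 1 array left out. The other alternatives kept these counts within 1.5 times, adding the 2 clones named from the study's list included (6 calls). No sign of a called member turned under any of them. All fits kept the pairing of mutant and control RNA, because each array is already the ratio of 1 pair. With 1 group of arrays no further pairing was possible. The cause of these shifts was not tested; fits with fewer arrays also have fewer degrees of freedom.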
